A study of Mus musculus with 15 samples.

Results

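Genes of polyamine metabolism were followed across 5 groups of mouse colon samples. The set has 10 members, Odc1, Srm, Sms, Amd1, Sat1, Paox, Smox, Oaz1, Oaz2 and Azin1. A member was measured where a probe set carried its symbol and no other, which held for 7 of the 10, among 18193 genes measured by the same rule. These 7 genes have 14 probe sets, and the brightest probe set of each gene over all arrays gives its level, with the others set beside it. Sms had 3 probe sets, each shared with a pseudogene, and Amd1 and Paox had none under those symbols, so these 3 genes were not analysed here.

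Expression was measured on 15 Affymetrix Mouse430_2 arrays, 3 per group, from colon of male mice aged 3 months on a mixed C57BL/6 and 129 background. The groups were tumour tissue of double mutants (APC+/-/Olfm4-/-), tissue beside the tumour in double mutants (adjacent, same genotype), colon of Olfm4 mutants (APC+/+/Olfm4-/-), colon of APC mutants (APC+/-/OLFM4(+/+)) and wild type colon (APC+/+/Olfm4+/+). All values are log2 intensities as deposited, which run from 2.56 to 14.96, so a difference of 1 is a doubling. The double mutant titles carry 2 animal numbers, and replicates 2 and 3 of both tissues come from the same animal, although the design text speaks of 3 mice in every category. The title number of Olfm4 mutant replicate 3 joins digits of the other 2 Olfm4 mutant numbers, so whether it is a separate animal is not settled, and it was counted as 1 of 3 arrays. What the p-values measure is array-to-array spread, part of which may be technical.

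Polyamines (putrescine, spermidine and spermine) are small positively charged molecules that bind nucleic acids and are needed for cell growth. Ornithine decarboxylase, encoded by Odc1, makes putrescine from ornithine, and spermidine and spermine are built on it by the synthases Srm and Sms with groups that Amd1 prepares from S-adenosylmethionine. Sat1 acetylates the higher polyamines for export or for oxidation by Paox, and Smox oxidises spermine directly, releasing hydrogen peroxide. Antizymes (Oaz1, Oaz2) bind ornithine decarboxylase and send it to the proteasome, and the antizyme inhibitor Azin1 binds antizyme in its place. In the intestine Odc1 is known as a target of Myc downstream of Apc loss.

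Some features of the arrays move with the groups. The 3′ minus 5′ difference of the control probe sets for dap, lys, phe and thr, bacterial RNAs added to every sample (the spike-in difference), averaged 5.01 ± 0.26 in tumour, 4.10 ± 0.30 in adjacent, 2.64 ± 0.52 in Olfm4 mutant, 2.16 ± 0.20 in APC mutant and 1.99 ± 0.083 in wild type arrays (SD, n = 3 each). A fit with the spike-in difference as a covariate therefore cannot cleanly separate it from group. In such fits the standard errors of the members grew in every comparison with a double mutant tissue. The groups also occupy consecutive array numbers, so array order and group cannot be told apart. The epithelial marker Epcam lay between 13.53 and 13.92 on all 15 arrays, while 8 epithelial markers together averaged 12.39 to 12.64 in tumour, 13.17 to 13.29 in adjacent and 13.46 to 13.66 in wild type arrays, with 4 of 8 lower and 0 higher in tumour against adjacent tissue. Olfm4 lay between 2.97 and 3.32 on every array and gives no check of the Olfm4 genotype. The mean level of 8 smooth muscle markers was 8.24 to 9.95 in tumour, 11.95 to 12.40 in adjacent and 12.09 to 13.34 in wild type arrays. Absorptive colonocyte markers (8 genes) averaged 9.49 to 10.19 in tumour, 12.45 to 12.48 in adjacent and 13.08 to 13.21 in wild type arrays. Neutrophil markers (6 measured) averaged 8.62 to 10.27 in tumour, 6.14 to 8.38 in adjacent and 5.11 to 5.79 in wild type arrays, and crypt and proliferation markers (7 measured) averaged 10.81 to 11.03, 9.20 to 9.48 and 9.01 to 9.67 in the same 3 groups. B and plasma cell markers (7 measured) averaged 7.52 to 7.91 in tumour, 9.97 to 10.47 in adjacent and 8.93 to 10.56 in wild type arrays, and enteric neuron and glia markers (6 measured) 5.85 to 6.68, 8.04 to 8.34 and 7.41 to 9.48. In bulk tissue, fewer cells of a type and less RNA per cell cannot be told apart.

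The promoters of Smox, Sat1 and Oaz2 are shown because these are the members whose brightest probe set differed most between groups. Each line is the 100 bases just upstream of the start that the RefSeq promoter table uses (GRCm38.p6; the RefSeq gene itself begins 4 bases earlier for Smox), read 5′ to 3′ on the gene's strand, at chr2:131491762-131491861 (plus strand) for Smox, chrX:155216450-155216549 (minus strand) for Sat1 and chr9:65676448-65676547 (plus strand) for Oaz2. Capitals mark the GC box GGGCGG on either strand.
Smox: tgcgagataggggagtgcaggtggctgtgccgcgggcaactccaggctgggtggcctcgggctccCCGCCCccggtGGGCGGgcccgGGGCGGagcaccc
Sat1: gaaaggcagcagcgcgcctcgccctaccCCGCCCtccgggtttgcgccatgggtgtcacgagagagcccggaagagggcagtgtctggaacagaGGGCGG
Oaz2: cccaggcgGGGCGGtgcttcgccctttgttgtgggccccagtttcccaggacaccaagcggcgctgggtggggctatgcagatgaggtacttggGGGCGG
Smox holds 3 GC boxes and Sat1 and Oaz2 hold 2 each in these 100 bases, and 24.7% of the 32851 windows of that length in the table hold at least 1. The GC box is not particular to these genes, since the same upstream bases of Odc1, Amd1 and Paox also hold it, while those of Oaz1 and Sms do not. The E-box CACGTG, the site that Myc and Max bind, occurs in 7.15% of all 300-base windows around gene starts, and CTTTGAT, a site of the Wnt effectors of the TCF family, in 3.73%, both strands searched. Neither was found in the windows of Odc1, Sat1, Smox, Oaz1 or Oaz2, nor in those of Amd1 and Paox. Bases outside these windows were not searched, so sites elsewhere in or near a gene would be missed. Of the 2 windows of Sms, which was not measured, 1 holds CACGTG. Srm and Azin1 had no entry.

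Spermine oxidase was the only one of the 7 members called higher in any comparison. Smox stood at 10.81, 10.54 and 10.80 in the 3 tumour arrays, at 9.19, 9.38 and 9.69 in adjacent arrays, at 8.999, 8.98 and 9.11 in Olfm4 mutant arrays, at 8.91, 9.77 and 8.27 in APC mutant arrays, and at 8.41, 9.88 and 9.75 in wild type arrays. Every tumour array was above each of the other 12 arrays, while the other 4 groups overlapped in part and APC mutant and wild type arrays spread over more than a doubling. Smox rose 2.46-fold in tumour against adjacent tissue (log2 difference 1.30, SE 0.38, adjusted p = 0.0212, limma with Benjamini-Hochberg adjustment over all genes). Against wild type colon it rose 2.59-fold in tumour (log2 difference 1.37, SE 0.38, adjusted p = 0.00891). The tumour arrays also stand apart in the epithelial, smooth muscle, colonocyte, neutrophil, crypt, B and plasma cell and enteric neuron and glia markers given above, and the part of these in the Smox values was not tested. Adjacent tissue and wild type colon differed by 0.07 for Smox (95% interval -0.75 to 0.90, adjusted p = 0.908).

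The order of the Smox means was tumour (10.72 ± 0.15), adjacent (9.42 ± 0.26), wild type (9.35 ± 0.81), Olfm4 mutant (9.03 ± 0.073) and APC mutant (8.98 ± 0.75; SD, n = 3 each). Of these neighbours only tumour and adjacent did not overlap. A second, dimmer Smox probe set had 7.07, 7.77 and 7.44 in tumour, 7.41, 6.67 and 6.56 in adjacent and 5.70, 6.93 and 6.15 in wild type arrays. It rose in tumour against wild type (1.17, adjusted p = 0.0115) but its tumour and adjacent arrays overlapped (0.55, adjusted p = 0.293). The tumour against adjacent call of the brighter probe set rests on few arrays, since the adjusted p became 0.0712 without adjacent replicate 1, 0.0571 without tumour replicate 1, 0.0608 without adjacent replicate 2 and 0.0628 without tumour replicate 3. Averaging the arrays of an animal gave 1.38 with an adjusted p of 0.0840. With the spike-in difference as a covariate the difference was 1.17 (SE 0.60, adjusted p = 0.256), and against wild type it was 0.95 (SE 1.55, adjusted p = 0.963). The second probe set's rise against wild type was not called without wild type replicate 1 (0.89, adjusted p = 0.0528) or without tumour replicate 2 (0.995, adjusted p = 0.0507).

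**Figure D1:**
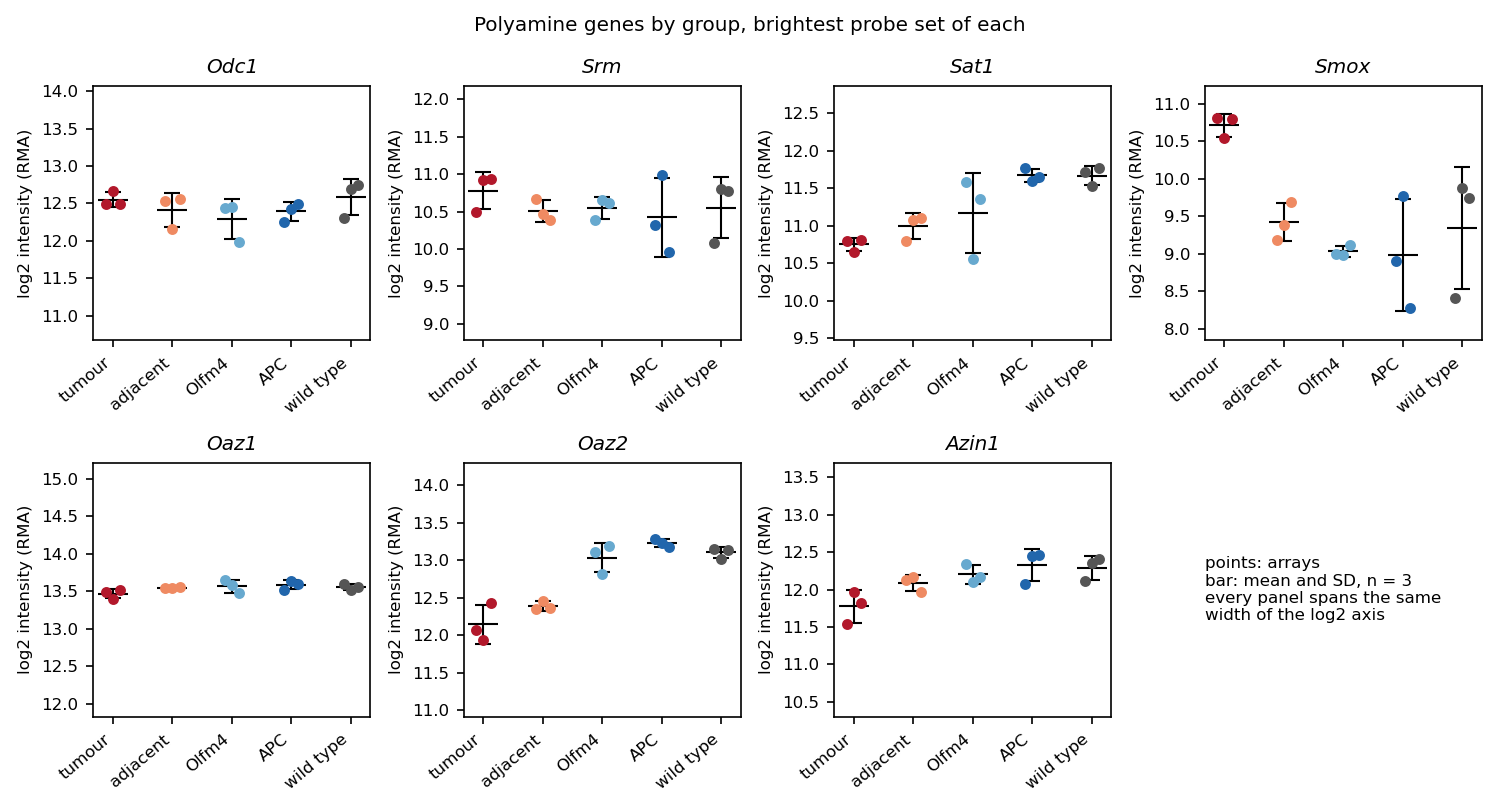
Log2 intensity (RMA) of the brightest probe set of 7 polyamine genes on 15 arrays, by group, with the mean and SD of each group (n = 3) as bars. The 3 tumour arrays lie above all others for Smox, tumour and adjacent arrays lie below the wild type arrays for Sat1 and Oaz2, and Oaz1 spans 13.40 to 13.65 over all arrays.

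Sat1, the acetyltransferase that starts polyamine export and back-conversion, was lower in both double mutant tissues. Its values were 10.79, 10.65 and 10.81 in tumour, 10.79, 11.08 and 11.10 in adjacent, 11.58, 10.56 and 11.36 in Olfm4 mutant, 11.77, 11.59 and 11.65 in APC mutant and 11.71, 11.53 and 11.77 in wild type arrays. Tumour and adjacent arrays all lay below the APC mutant and wild type arrays, which overlapped each other, and Olfm4 mutant replicate 2 was the lowest of the 15. Sat1 fell in tumour against wild type (log2 difference -0.92, SE 0.21, 1.89-fold, adjusted p = 0.00234). It fell in adjacent tissue against wild type (-0.68, adjusted p = 0.0271) and against APC mutant colon (-0.68, adjusted p = 0.0386). Tumour and adjacent tissue differed by -0.24 for Sat1 (adjusted p = 0.438) and Olfm4 mutant and wild type colon by -0.50 (adjusted p = 0.150).

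The Sat1 means in rising order were 10.75 ± 0.084 in tumour, 10.99 ± 0.17 in adjacent, 11.17 ± 0.54 in Olfm4 mutant, 11.67 ± 0.13 in wild type and 11.67 ± 0.092 in APC mutant arrays, and each group overlapped its neighbour in that order. That order follows the falling spike-in difference except between wild type and APC mutant, whose Sat1 means are both 11.67. The low Olfm4 mutant replicate 2 (10.56) had a spike-in difference of 3.25, against 2.29 and 2.40 in the other Olfm4 mutant arrays. With the spike-in difference as a covariate Sat1 was called in no comparison and its differences turned positive, 0.89 in tumour and 0.58 in adjacent tissue against wild type and 0.48 in adjacent tissue against APC mutant colon (adjusted p = 0.863, 0.99998 and 0.9996). Without 1 array the adjacent against wild type call was lost for wild type replicates 1 and 3 and adjacent replicates 1 and 2 (adjusted p = 0.0570, 0.0737, 0.0896 and 0.0517), and the call against APC mutant colon did not survive the omission of any of its 6 arrays (adjusted p between 0.0692 and 0.116). With the arrays of an animal averaged the adjacent calls were lost against wild type (adjusted p = 0.0631) and against APC mutant colon (adjusted p = 0.0877), and with animal as a random block the call against APC mutant colon was lost (adjusted p = 0.0571). The tumour against wild type call held without any 1 of its 6 arrays (highest adjusted p 0.0107).

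**Figure D2:**
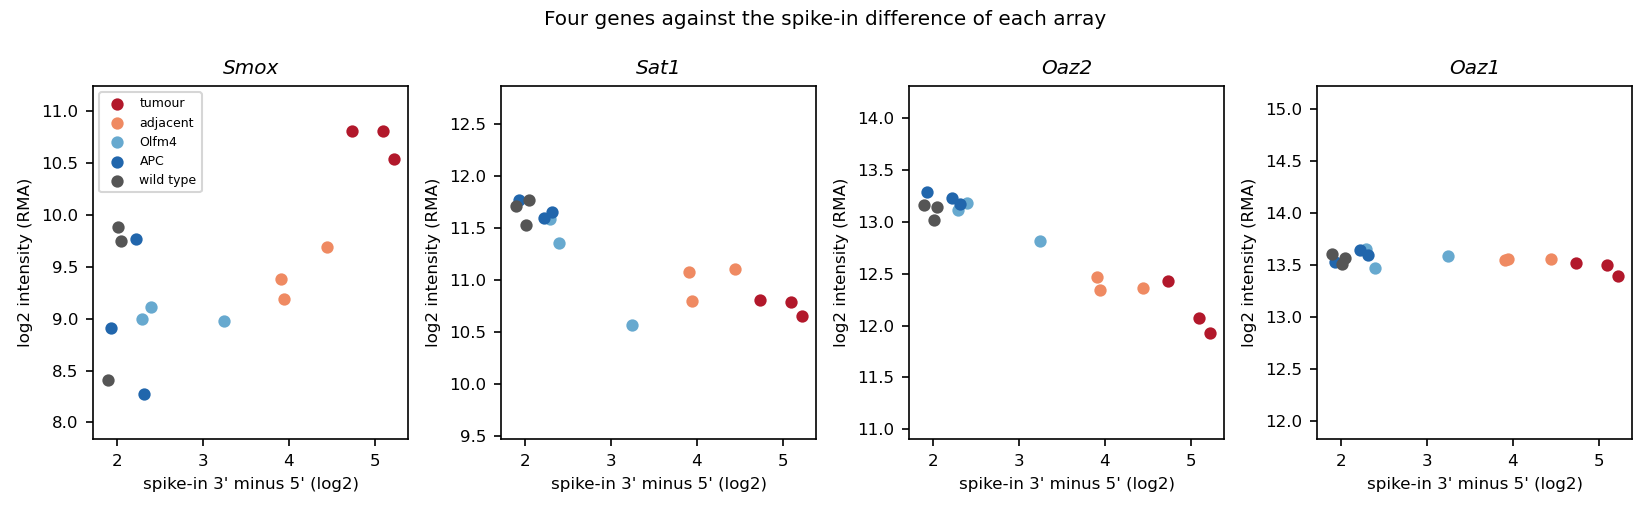
Log2 intensity (RMA) of Smox, Sat1, Oaz2 and Oaz1 against the spike-in 3′ minus 5′ difference (log2) of the same array, coloured by group. Sat1 and Oaz2 are lower on the arrays with a larger spike-in difference, Olfm4 mutant replicate 2 at 3.25 included, Smox is higher on the tumour arrays, and Oaz1 stays between 13.40 and 13.65.

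Among the regulators, Oaz2 fell in the double mutant tissues and Oaz1 was called in no comparison. Oaz2, an antizyme, had 12.07, 11.93 and 12.43 in tumour, 12.34, 12.46 and 12.37 in adjacent, 13.11, 12.81 and 13.18 in Olfm4 mutant, 13.28, 13.23 and 13.17 in APC mutant and 13.16, 13.02 and 13.14 in wild type arrays. The 6 double mutant arrays all lay below the other 9, tumour and adjacent arrays overlapped, and the APC mutant arrays all lay above the wild type arrays by a small margin (0.12, adjusted p = 0.880). Oaz2 fell 1.95-fold in tumour against wild type (log2 difference -0.96, SE 0.13, adjusted p = 6.98e-05). It fell in adjacent tissue against wild type (-0.72, adjusted p = 0.00237) and against APC mutant colon (-0.84, adjusted p = 0.00243). Both adjacent tissue calls held whichever single array was omitted (highest adjusted p 0.0112 and 0.0137).

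Adjacent tissue had Oaz2 means of 12.39 ± 0.063, against 13.04 ± 0.20 in Olfm4 mutant colon (SD, n = 3 each; difference -0.64, SE 0.13, adjusted p = 0.0607), with no overlap. That difference passed the threshold with genes below the median mean left out (adjusted p = 0.0422), with a trend and robust prior (adjusted p = 0.0458) and without Olfm4 mutant replicate 2 (-0.76, adjusted p = 0.0123). The interaction, which asks whether the difference between Olfm4-deficient and Olfm4-intact colon is the same beside an APC mutation, was -0.77 for Oaz2 (SE 0.19, unadjusted p = 0.00147, adjusted p = 0.318). Its double mutant term is adjacent tissue, the only group taken beside a tumour. Lying beside a tumour and the joint genotype therefore cannot be told apart in it. With the spike-in covariate the interaction was -0.27 (SE 0.23, adjusted p = 0.9996). With the spike-in difference as a covariate the Oaz2 difference against wild type was 0.21 in tumour (SE 0.41, adjusted p = 0.972). In adjacent tissue it was 0.10 against wild type (SE 0.30, adjusted p = 0.99998) and -0.09 against APC mutant colon (SE 0.28, adjusted p = 0.9996). Olfm4 mutant replicate 2, the array with the largest spike-in difference outside the double mutants, was again the lowest of its group for Oaz2.

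A second Oaz2 probe set placed the same genotypes further apart. It had 7.59, 7.72 and 7.97 in tumour, 7.59, 7.54 and 7.60 in adjacent, 8.56, 8.10 and 8.87 in Olfm4 mutant, 9.55, 9.03 and 8.46 in APC mutant and 9.64, 9.41 and 9.11 in wild type arrays. Against wild type it fell in tumour (-1.62, adjusted p = 0.000170), in adjacent tissue (-1.81, adjusted p = 0.000331) and in Olfm4 mutant colon (-0.87, adjusted p = 0.0491), with adjustment over 34945 probe sets. With the spike-in covariate its tumour against wild type difference was 0.52 (adjusted p = 0.986). The Olfm4 mutant call was lost without wild type replicate 2 or without any 1 of the 3 Olfm4 mutant arrays. The third Oaz2 probe set was dim, at the 31.2nd percentile of probe sets, and lay between 5.43 and 5.76 on all arrays.

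Oaz1 is the brightest member, at the 99.3rd percentile of all single-symbol probe sets. It had 13.50, 13.40 and 13.52 in tumour, 13.55, 13.54 and 13.56 in adjacent and 13.60, 13.51 and 13.56 in wild type arrays. The tumour arrays all lay below the adjacent arrays, by 0.08 on average (95% interval -0.27 to 0.11, adjusted p = 0.552). Its group means ran only from 13.47 to 13.59. A further Oaz1 probe set is shared with a pseudogene and was not used here.

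Azin1, the antizyme inhibitor, fell in tumour against wild type colon. Its brightest probe set had 11.54, 11.97 and 11.82 in tumour, 12.13, 12.17 and 11.97 in adjacent, 12.35, 12.10 and 12.17 in Olfm4 mutant, 12.08, 12.45 and 12.46 in APC mutant and 12.11, 12.36 and 12.40 in wild type arrays. The tumour arrays all lay below the wild type arrays and, narrowly, below the adjacent arrays, where the highest tumour and the lowest adjacent array both read 11.97. It fell 1.43-fold in tumour against wild type (log2 difference -0.51, SE 0.14, adjusted p = 0.00988), and tumour and adjacent tissue differed by -0.31 (adjusted p = 0.131). A second Azin1 probe set had 9.27, 9.38 and 9.17 in tumour, 10.02, 10.001 and 9.79 in adjacent, 10.73, 10.27 and 10.51 in Olfm4 mutant, 10.59, 10.59 and 11.003 in APC mutant and 10.86, 11.07 and 10.89 in wild type arrays.

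For that second probe set tumour, adjacent and wild type arrays formed 3 steps without overlap. Its means were 9.27 in tumour, 9.94 in adjacent, 10.50 in Olfm4 mutant, 10.73 in APC mutant and 10.94 in wild type arrays. That rising order is also the order of the falling spike-in difference. It fell in tumour against adjacent tissue (-0.66, adjusted p = 0.00533), in tumour against wild type (-1.67, adjusted p = 1.99e-06) and in adjacent tissue against wild type (-1.003, adjusted p = 0.000444). The third Azin1 probe set was dim, at the 15.4th percentile and not shown to be above background, with 4.53, 4.52 and 4.38 in tumour, 4.21, 4.06 and 4.05 in adjacent and 4.87, 4.61 and 4.83 in wild type arrays. Its rise of 0.37 in tumour against adjacent tissue (adjusted p = 0.0398) was not called without tumour replicates 1, 2 or 3 or adjacent replicates 2 or 3 (adjusted p from 0.0518 to 0.116). Where the Azin1 probes lie in the transcript was not analysed here. With the spike-in covariate none of the Azin1 differences against wild type was called. The second probe set's difference in tumour against adjacent tissue was then -0.49 (adjusted p = 0.218), and the brightest probe set stood at -0.37 in tumour against wild type (SE 0.59, adjusted p = 0.963).

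**Figure D3:**
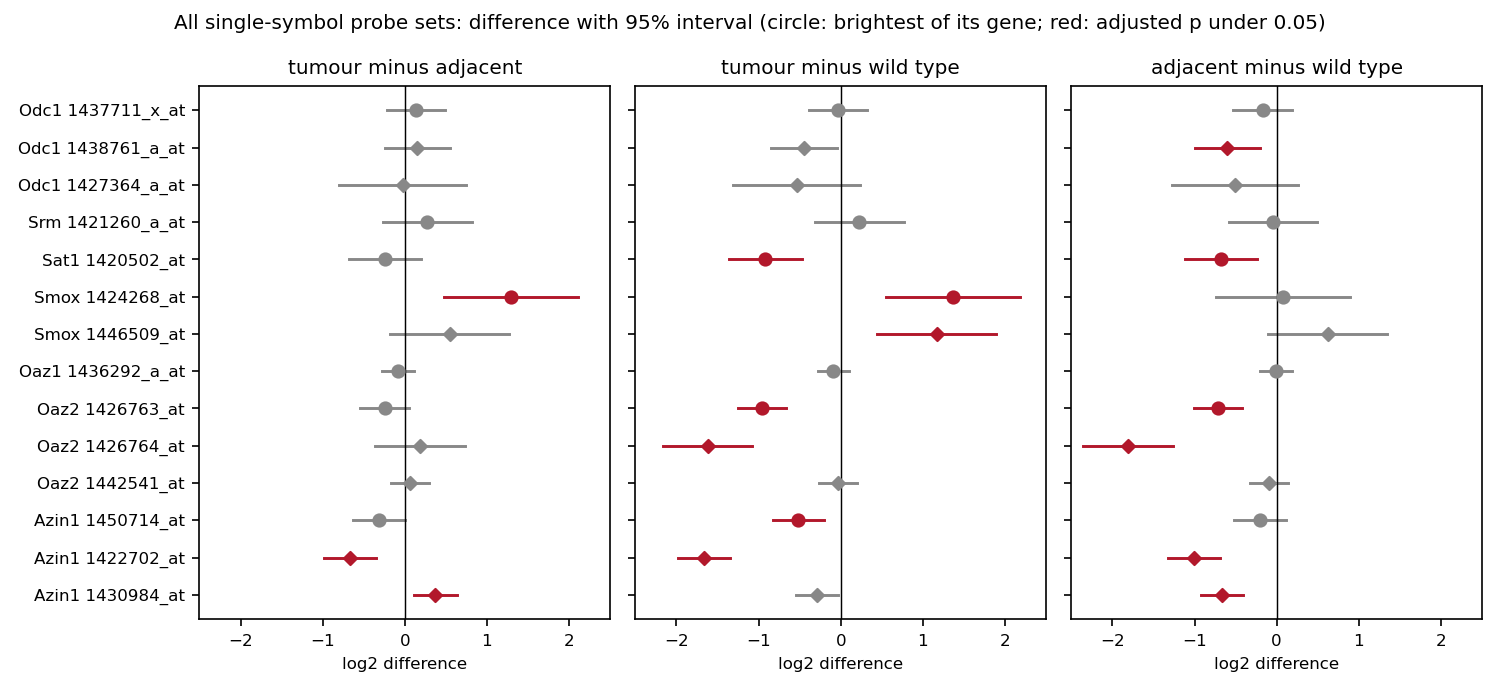
Log2 difference with its 95% interval for all 14 probe sets of the 7 genes in 3 comparisons, with circles for the brightest probe set of a gene and red for an adjusted p under 0.05 over all single-symbol probe sets. The dimmest Azin1 probe set lies above 0 and the other Azin1 probe sets below 0 in tumour against adjacent tissue, and 5 of 14 probe sets lie below 0 in red for tumour against wild type and 6 of 14 for adjacent tissue against wild type.

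The genes of synthesis, Odc1 and Srm, were called in no comparison by their brightest probe sets. Odc1 had 12.49, 12.67 and 12.49 in tumour, 12.53, 12.16 and 12.56 in adjacent, 12.44, 12.46 and 11.98 in Olfm4 mutant, 12.25, 12.43 and 12.50 in APC mutant and 12.31, 12.69 and 12.75 in wild type arrays. Tumour arrays all lay narrowly above the Olfm4 mutant arrays, every other pair of groups overlapped, and the means ran from 12.58 ± 0.24 in wild type and 12.55 ± 0.10 in tumour through 12.41 ± 0.22 in adjacent and 12.39 ± 0.12 in APC mutant to 12.29 ± 0.27 in Olfm4 mutant arrays. Tumour and adjacent tissue differed by 0.14 for Odc1 (95% interval -0.22 to 0.49, adjusted p = 0.601) and tumour and wild type by -0.03 (95% interval -0.39 to 0.32, adjusted p = 0.885). This probe set carries a suffix given to probe sets that can match several transcripts.

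Both other Odc1 probe sets had lower means in the double mutant tissues than in wild type colon. The brighter of them had 12.17, 12.18 and 12.11 in tumour, 12.29, 11.72 and 11.99 in adjacent and 12.14, 12.92 and 12.73 in wild type arrays. Its lower level was not particular to the double mutants, with means of 12.15 in both Olfm4 mutant and tumour arrays and 12.34 in APC mutant arrays. Olfm4 mutant colon differed from wild type by -0.44 for this probe set (adjusted p = 0.154). The same probe set fell by 0.60 in adjacent tissue against wild type (adjusted p = 0.0281), although the arrays overlap, and tumour differed from wild type by -0.45 (adjusted p = 0.0639). That fall was not called without wild type replicates 2 or 3 or adjacent replicates 2 or 3 (adjusted p from 0.0725 to 0.121) or with the arrays of an animal averaged (adjusted p = 0.107), and without wild type replicate 1 the tumour difference was -0.67 (adjusted p = 0.00382). The dimmer had 11.47, 11.25 and 11.15 in tumour, 12.01, 10.87 and 11.05 in adjacent and 10.90, 12.30 and 12.26 in wild type arrays, and its tumour difference of -0.53 (adjusted p = 0.246) became -0.99 without wild type replicate 1 (adjusted p = 0.0144). The same array left out moved its adjacent difference to -0.97 (adjusted p = 0.0268), from -0.51 with all arrays (adjusted p = 0.326). The mean of this dimmer probe set was highest in Olfm4 mutant arrays (12.17). All adjacent arrays lay below them (-0.86, adjusted p = 0.243).

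Wild type replicate 1 was the lowest wild type array for all 3 Odc1 probe sets, for Srm, for both Smox probe sets and for the brightest Azin1 probe set. It also had the highest smooth muscle marker level (13.34, against 12.09 and 12.25 in the other wild type arrays) and the highest enteric neuron and glia marker level (9.48, against 7.41 and 7.84), and the part of these in the Odc1 values was not tested. Srm, which makes spermidine, had 10.49, 10.92 and 10.93 in tumour, 10.67, 10.46 and 10.38 in adjacent and 10.09, 10.81 and 10.77 in wild type arrays, and all groups overlapped. Tumour and adjacent tissue differed by 0.27 for Srm (95% interval -0.27 to 0.82, adjusted p = 0.472) and tumour and wild type by 0.23 (95% interval -0.31 to 0.77, adjusted p = 0.484).

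The genes whose pattern was most like that of the brightest Odc1 probe set over the 15 arrays were 3000002C10Rik, Adra2c and Sprr2k, with Pearson's r of 0.879, 0.878 and 0.868. Over the 5 group means the most like were Myl7 (r = 0.996), Ccdc86 (0.994) and Irgm1 (0.991). These r are descriptions over arrays that share groups and a common normalization, and the 2 sets of genes do not overlap.

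Counted together, 1 of the 7 members was called in tumour against adjacent tissue, higher, while 28.1% of all genes were called. In tumour against wild type 4 of 7 were called, 1 higher (Smox) and 3 lower (Sat1, Oaz2 and Azin1), against 49.4% of all genes, 29.3% higher and 20.1% lower. In adjacent tissue against wild type 2 of 7 were lower and 0 higher, against 27.8% of all genes called and 10.1% lower, and in adjacent tissue against APC mutant colon 2 of 7 were lower, against 17.3% called and 7.45% lower. At an unadjusted p under 0.05 there were 2, 4, 2 and 2 members in these 4 comparisons, against 38.2%, 55.3%, 39.1% and 33.1% of all genes. Counted in either direction, each of these is within 1 gene of what the share of all genes gives for 7, while the counts of lower members against wild type and against APC mutant colon are each more than 1 gene above it. The brightest probe sets of all 7 members lie at or above the 72.8th percentile, and brighter genes were called more often. Among the 9096 genes above the median mean, 3329, 5898, 3979 and 2589 were called in these 4 comparisons. The distances from the share of all genes are therefore not read as a result about the members. The counts of lower members are also small, and those of adjacent tissue depend on single arrays. With 1 array left out, members called in adjacent tissue were 1 to 2 against wild type and 1 against APC mutant colon. In tumour against wild type they stayed at 4, and with the spike-in covariate all became 0. The median difference of the members was -0.08, -0.09, -0.17 and -0.04 in these 4 comparisons, beside 0.00, 0.11, 0.13 and 0.14 over all genes. Arrays of the groups did not overlap for 3, 4, 2 and 2 members in the same order, against 45.9%, 55.2%, 40.1% and 39.5% of all genes.

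The remaining comparisons called none of the members. In adjacent tissue against Olfm4 mutant colon limma called 0 of 7 members and 0.044% of all genes (0.0385% higher and 0.0055% lower), with 1 member (Oaz2) and 16.3% of genes at an unadjusted p under 0.05, and 2 members (Smox and Oaz2) and 25.2% of genes without overlap. In Olfm4 mutant against wild type colon 0 of 7 were called and 7.92% of all genes (5.42% higher and 2.5% lower), with 0 members and 27% of genes without overlap, and with Sat1 at an unadjusted p of 0.0295 and 24.6% of genes under 0.05. In APC mutant against wild type colon 0 of 7 and 0% of all genes were called, and 0 members and 7.28% of genes had an unadjusted p under 0.05, and 1 member (Oaz2) and 9.13% of genes did not overlap. The interaction called 0 of 7 and 0% of genes, with Oaz2 and 10.4% of genes at an unadjusted p under 0.05. Of the 14 probe sets, 3 were called in tumour against adjacent tissue (22.2% of all single-symbol probe sets), 7 in tumour against wild type (46.2%) and 6 in adjacent tissue against wild type (27.5%). Adjacent tissue against APC mutant colon called 5 (19.7%), adjacent tissue against Olfm4 mutant colon 1 (0.77%), Olfm4 mutant against wild type colon 1 (8.91%), APC mutant against wild type colon 0 (0%) and the interaction 0 (0.0286%).

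Around the members, 44 of 47 genes on 7 lists of neighbouring steps were measured. The lists were chosen with earlier results of these data known, so their counts are descriptions and not independent support. In tumour against adjacent tissue 13 of the 44 were called higher and 13 lower, with a median difference of 0.10 beside 0.00 over all genes. Of all genes 14.3% were called higher and 13.8% lower, the shares to set beside the count of each list in this comparison. The list of terminal diamine catabolism, the enzymes that oxidise putrescine and other amines and the aldehydes they give, had 0 of 4 higher and 4 of 4 lower, with a median of -1.93. Aoc1, the diamine oxidase that degrades putrescine, had 11.75, 11.02 and 11.18 in tumour, 12.92, 13.10 and 12.73 in adjacent and 13.34, 12.57 and 12.91 in wild type arrays. The tumour arrays all lay below both other groups, which overlapped, and Aoc1 fell 3.03-fold against adjacent tissue (log2 difference -1.60, SE 0.21, adjusted p = 9.70e-05). The monoamine oxidases Maoa and Maob (-1.41 and -2.87) and the aldehyde dehydrogenase Aldh1a1 (-2.26) fell in tumour against adjacent tissue as well (adjusted p at most 2.17e-05). The absorptive colonocyte markers were lower in the same arrays, 8 of 8 of them called, and their part in these values was not tested.

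The list of ornithine and arginine supply had 3 of 7 called higher and 1 lower in tumour against adjacent tissue, beside 14.3% and 13.8% of all genes. Arg1, the arginase that makes ornithine, had 9.40, 9.56 and 9.50 in tumour and 5.47, 5.60 and 8.74 in adjacent arrays, with 5.13 to 5.76 in all other groups. The tumour arrays were all higher, 1 adjacent array stood near them, and Arg1 rose by 2.89 (SE 0.62, adjusted p = 0.00348). That difference was 3.96 without adjacent replicate 3 and 2.32 without adjacent replicate 1, and with the spike-in covariate it was 1.89 (adjusted p = 0.218). Adjacent replicate 3, the high one, also had the highest neutrophil marker level of its group (8.38, against 6.14 and 6.53), and the part of this in the Arg1 value was not tested. The arginine transporter Slc7a2 rose by 1.56 and Agmat, the enzyme that makes putrescine from agmatine, by 1.01 in tumour, while Otc, the ornithine transcarbamylase that consumes ornithine, fell (adjusted p = 8.87e-07), with 3.82, 4.61 and 3.76 in tumour and 8.14, 8.86 and 8.95 in adjacent arrays. No detection calls were used, and the Otc values in tumour are low on this scale, so the size of the Otc fall is not settled. For the same reason sizes are uncertain for Agmat, Slc7a2, Slc22a2 and Azin2, whose adjacent arrays all lay below 6.35, the lowest array median. The same holds for Oaz3, whose tumour arrays did. For Arg1 the adjacent arrays at 5.47 and 5.60 and all Olfm4 mutant, APC mutant and wild type arrays lay below 6.35. The size of the Arg1 rise is therefore uncertain too.

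**Figure D4:**
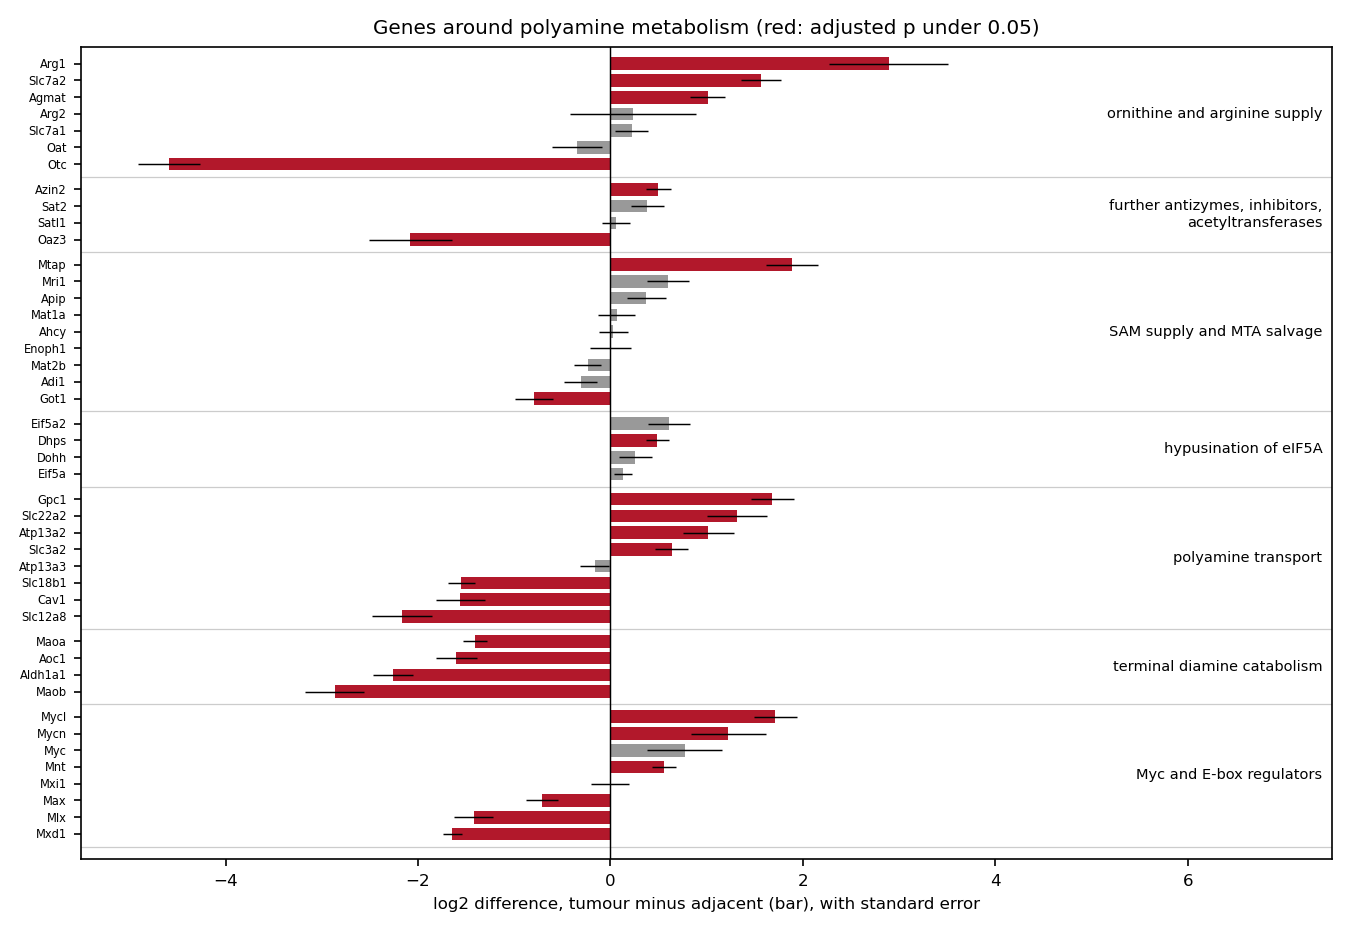
Log2 difference of tumour minus adjacent tissue (bars) with its standard error for 44 genes on 7 lists around polyamine metabolism, red where the adjusted p is under 0.05. All 4 genes of terminal diamine catabolism lie below 0 in red, and the other 6 lists hold 13 red bars above 0 and 9 below.

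In the transport list 4 of 8 measured genes were called higher and 3 lower in tumour against adjacent tissue, beside 14.3% and 13.8% of all genes. Gpc1, a glypican that takes part in polyamine uptake, rose by 1.68, Slc22a2 by 1.32, the lysosomal polyamine exporter Atp13a2 by 1.02 and Slc3a2 by 0.64. The vesicular polyamine transporter Slc18b1 (-1.55), Slc12a8 (-2.17) and the caveolin Cav1 (-1.56), which restrains uptake, fell. The smooth muscle and the absorptive colonocyte markers were lower in the same arrays, 8 of 8 called in each list. The part of these in the transport values was not tested. The Slc3a2 call was lost without adjacent replicate 3 (adjusted p = 0.0580) and without tumour replicate 3 (adjusted p = 0.0651).

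In the list of the methyl donor and its salvage 1 of 9 measured genes was called higher and 1 lower in tumour against adjacent tissue, beside 14.3% and 13.8% of all genes. Mtap, which recycles the by-product of spermidine and spermine synthesis, had 12.35, 12.30 and 12.47 in tumour, 10.38, 10.34 and 10.74 in adjacent and 9.32, 8.49 and 9.64 in wild type arrays. These 3 groups formed steps without overlap. Mtap was higher by 1.89 in tumour against adjacent tissue (adjusted p = 0.000217). It was higher by 1.33 in adjacent tissue against wild type (adjusted p = 0.00373). The Mtap means were 12.37 in tumour, 10.49 in adjacent, 9.85 in Olfm4 mutant, 9.68 in APC mutant and 9.15 in wild type arrays. That falling order is also the order of the falling spike-in difference. Olfm4 mutant and APC mutant arrays overlapped those of wild type. With the spike-in covariate 0 genes were called in adjacent tissue against wild type, so that Mtap call was lost. Got1 fell by 0.80 in tumour against adjacent tissue. In the hypusination list, the steps that attach a group from spermidine to the factor eIF5A, Dhps was the 1 of 4 called and rose by 0.49 (adjusted p = 0.00849). Of 4 further antizymes, antizyme inhibitors and acetyltransferases, Azin2 rose by 0.50 (adjusted p = 0.0115) and Oaz3 fell by 2.08 (adjusted p = 0.00280). The Azin2 call was lost without adjacent replicate 2 (0.43, adjusted p = 0.0556), and its most variable probe set gave -0.41 (adjusted p = 0.477).

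Of 8 Myc and E-box regulators 3 were called higher and 3 lower in tumour against adjacent tissue, beside 14.3% and 13.8% of all genes. Myc itself had 9.14, 9.33 and 8.74 in tumour, 9.29, 7.82 and 7.78 in adjacent and 7.65, 8.34 and 8.46 in wild type arrays. It differed by 0.77 between tumour and adjacent tissue (SE 0.39, adjusted p = 0.170), and by 1.27 without adjacent replicate 1 (adjusted p = 0.0128), the high adjacent array. Mycl rose by 1.72, Mycn by 1.23 and the repressor Mnt by 0.56, while the partner Max (-0.71), Mlx (-1.42) and the repressor Mxd1 (-1.64) fell. With the mean of all its probe sets Mnt stood at 0.18 (adjusted p = 0.301). The Mycn call (adjusted p = 0.0319) was lost without adjacent replicates 1 or 2 or any 1 of the 3 tumour arrays (adjusted p from 0.0633 to 0.136).

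Against wild type colon, 18 of the 44 listed genes were higher and 16 lower in tumour, where 29.3% of all genes were higher and 20.1% lower. In adjacent tissue against wild type 8 were higher and 8 lower, beside 17.7% and 10.1% of all genes. In adjacent tissue against APC mutant colon 0 were higher and 3 lower (Got1, Apip and Max), beside 9.88% of all genes higher and 7.45% lower. In Olfm4 mutant against wild type colon 4 were higher and 0 lower, beside 5.42% and 2.5% of all genes. These were the arginine transporter Slc7a2 (0.82, adjusted p = 0.0335), Slc18b1 (0.70, adjusted p = 0.0163), Mxi1 (0.79, adjusted p = 0.0332) and Mycl (1.21, adjusted p = 0.0121). How these 4 calls change under the alternatives was not tested. Over all genes that comparison called 1440, but 33 with only the groups compared and 20 with the spike-in covariate. Without Olfm4 mutant replicate 2 it called 279, and without wild type replicate 1 it called 2236. Apip and Mxi1 were named after their values were seen. In APC mutant against wild type colon, in adjacent tissue against Olfm4 mutant colon and in the interaction 0 of 44 were called. The comparisons with wild type share its 3 arrays.

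In tumour against adjacent tissue several of these calls depended on how arrays were treated. With the arrays of an animal averaged, the calls of Dhps (adjusted p = 0.0577), Slc22a2 (0.0678), Atp13a2 (0.0611), Slc3a2 (0.112), Mycn (0.0807) and Azin2 (0.103) were lost. With the spike-in covariate those 6 and Arg1, Agmat, Oaz3, Got1, Max and Mnt were not called, with adjusted p-values that included 0.203 for Dhps and 0.137 for Mnt.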

How the data were processed

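RNA from colon was isolated with Trizol, labelled with biotin as cRNA and measured on Mouse430_2 arrays, per the labels. The deposited table holds log2 values made by the authors with RMA, and Partek 6.5 is also named, per the submitters' processing notes. RMA brings all arrays to 1 distribution, so it largely hides a shift shared by most genes. Detection calls were not used, a build for the probe sets is not given in the sources used here, and the number of arrays limits the precision.

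Probe sets with exactly 1 symbol (34945 of 45101) were kept, and the brightest over 15 arrays stood for each of 18193 genes. With limma 3.58.1 (lmFit, eBayes) in R 4.3.3, a mean for each of the 5 groups was fitted over all 15 arrays. For each of 8 contrasts, p-values were adjusted over all genes by Benjamini-Hochberg and called at 0.05; probe sets other than the brightest were adjusted over all 34945. SE is limma's standard error of a fitted difference, 3 arrays against 3. The interaction subtracts the difference between Olfm4 mutant and wild type from that between adjacent tissue and APC mutant. The fit was tested on simulated data.

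The members and lists were chosen with earlier results of these data known. Of the listed genes, those called in tumour against adjacent tissue could be named, otherwise those with the largest differences, and Myc always. Adjacent and tumour arrays were paired by replicate number, which marks the same animal by the titles. Deviations from the group means correlated at 0.281, -0.0155 and 0.182 for pairs 1, 2 and 3, and from -0.259 to -0.0881 between animals. The crossed pairs of replicates 2 and 3, which share an animal, correlated at 0.126 and 0.124, so the match of these arrays by number is assumed. Alternatives were other choices of probe set (the brightest without an s or x suffix was chosen after seeing the data), only genes above the median mean, cyclic loess, a trend and robust prior, only the groups compared, the spike-in difference as a covariate, each array left out, a replicate block, animal as a random block, and arrays of an animal averaged.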

Additional observations from a re-analysis of the deposited data

How the results depend on the processing

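The small number of arrays and of animals limits these results. Of values recomputed under alternatives for the members, 517 of 539 were unchanged, 8 lost the call, 9 gained one and 5 turned sign. For arrays left out, 362 of 378 were unchanged, 14 lost the call and 2 gained one. A value not called at first counted as unchanged if it stayed not called, whatever its direction. Most values were of that kind, since the main fit called few members. All lost calls and turned signs fall on those few called values, so the unchanged totals say little about how stable the calls are. The cause of these changes was not tested.

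With the spike-in difference as a covariate the members called became 0 in tumour against adjacent, tumour against wild type, adjacent against wild type and adjacent against APC mutant, and among all genes 2144, 1, 0 and 0 were called. The signs turned for Sat1 in tumour against wild type (0.89), adjacent against wild type (0.58) and adjacent against APC mutant (0.48), for Oaz2 in tumour (0.21) and adjacent (0.10) against wild type, and for the second Oaz2 probe set in tumour against wild type (0.52). The other probe sets called were then 1 in tumour against adjacent and 0 in tumour, adjacent and Olfm4 mutant against wild type and in adjacent against APC mutant, and the listed genes called were 15 and 0 in tumour against adjacent and against wild type.

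The most variable probe set per gene gave 2 members in tumour against adjacent and 1 in Olfm4 mutant against wild type, and turned Azin2 to -0.41 in tumour against adjacent. Genes above the median mean, or a trend and robust prior, gave 1 member in adjacent against Olfm4 mutant. Dimmer probe sets left out gave 1 other probe set in tumour against adjacent, and a trend and robust prior or only the groups compared gave 0 in Olfm4 mutant against wild type. The second Odc1 probe set in adjacent against wild type was not called with only the groups compared (adjusted p = 0.140).

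The replicate block, pairing adjacent and tumour arrays of an animal, gave 1 member called, Smox, and 1 other probe set in place of 2 (the third Azin1 one, adjusted p = 0.0561), and changed no other count of calls by over 1.5 times. Animal as a random block left 1 member in adjacent against APC mutant. Averaging the arrays of an animal gave 0 members in tumour against adjacent, 1 in adjacent against wild type and 1 against APC mutant, and 1 other probe set in tumour against adjacent.

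With each array left out in turn, members called ran from 0 to 1 in tumour against adjacent, 1 to 2 in adjacent against wild type, 1 to 1 in adjacent against APC mutant and 0 to 1 in adjacent against Olfm4 mutant, and stayed at 4 in tumour against wild type. Other probe sets ran from 1 to 2 in tumour against adjacent, 2 to 4 in tumour against wild type, 3 to 5 in adjacent against wild type, 2 to 3 in adjacent against APC mutant, 0 to 3 in adjacent against Olfm4 mutant and 0 to 1 in Olfm4 mutant against wild type.

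Under cyclic loess the median over all genes was -0.01 in tumour against wild type (0.11 without it), 0.01 in adjacent against wild type (0.13) and 0.02 in adjacent against APC mutant (0.14). The share of higher among called genes became 45.07% in adjacent against wild type (63.61% without it), 38.54% in adjacent against APC mutant (57.01%), 40.2% in Olfm4 mutant against wild type (68.47%) and 71.43% in adjacent against Olfm4 mutant (87.5%, of 8 genes), and the members called kept their direction.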
